A study of Mus musculus and Homo sapiens with 12 samples.

Results

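The genes described here encode the machinery of RNA polymerase I (Pol I) and RNA polymerase III (Pol III). They were chosen by symbol: every gene named POLR1, POLR3 or GTF3 with any suffix, the initiation factors and regulators BRF1, BRF2, BDP1, MAF1, RRN3, UBTF and TAF1A to TAF1D, and the subunits POLR2E, POLR2F, POLR2H, POLR2K and POLR2L that also serve RNA polymerase II (Pol II). The human table held 37 of them among 11513 genes, of which 9 were Pol I genes, 21 Pol III genes, 2 shared by Pol I and Pol III, and 5 shared by all 3 polymerases. The mouse table held 33 among 10430 genes, namely 9, 18, 2 and 4. The 33 symbols were listed in both tables, and BRF1, BRF2, POLR2K and POLR3E carried a symbol in the human table only.

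Pol I transcribes the large ribosomal RNA precursor in the nucleolus, and Pol III makes transfer RNAs, 5S ribosomal RNA and other short RNAs. RRN3 joins Pol I to a promoter that is held by UBTF and by the TBP-containing factor SL1, whose other subunits are TAF1A to TAF1D. Pol III is brought to most of its genes by TFIIIC (the GTF3C proteins) and TFIIIB (BRF1 or BRF2, BDP1 and TBP), with GTF3A needed only at 5S genes, and MAF1 is its general repressor. The RNA products of both polymerases were not analysed here, so every value below is the level of RNA from a gene that encodes part of the machinery.

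The human cells were KOPTK1, an established T-ALL line (T-ALL is acute lymphoblastic leukaemia of the T lineage), exposed for 72 h to DMSO or to the gamma-secretase inhibitor Compound E (gSI), which blocks the cleavage that activates NOTCH1. The mouse cells were T-ALL driven by a NOTCH1 delta-E tumour and transplanted for a second time. The recipients were C57BL/6 mice kept for 3 weeks on diets of 8 g/kg (control), 0.8, 0.4 or 0 g/kg valine, and GFP-positive cells were sorted from spleen. The treatment protocol describes the intermediate groups as deficient diet with valine given in drinking water, and the age of the mice is not stated in the sources used here. Each group had 2 libraries, called replicates 1 and 2 in KOPTK1 and TALL2 and TALL3 in mouse, and nothing says whether TALL2 and TALL3 were separate tumours, animals or pools, so the spread between libraries may be technical. In bulk samples, fewer cells of a type and less RNA per cell cannot be told apart.

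Recovered reads per library ranged from 22939478 to 42245079 in KOPTK1 and from 14222895 to 37687253 in mouse. Of 9 T-cell markers fixed for the check, 8 were listed in KOPTK1 and 9 in mouse, with a summed level of 2942 to 3999 FPKM over the mouse libraries. In KOPTK1 their sum was 371 and 355 FPKM with DMSO and 207 and 220 FPKM with gSI. In mouse the neutrophil markers (10 of 10 listed) summed to 559 and 309 FPKM at 0 g/kg, to 12 and 74.1 FPKM at 0.4 g/kg, and to 0.737 to 13.3 FPKM in the other 4 libraries. The erythroid markers (7 of 9 listed) summed to 98.3 and 266 FPKM at 8 g/kg and to 1.33 to 54.3 FPKM in the restricted libraries, and the macrophage markers (4 of 7) to 34.8 and 33.4 FPKM at 0 g/kg and 5.27 to 12 FPKM elsewhere. Of 5 B-cell markers, 0 were listed in mouse and 2 in KOPTK1, at 10.4 and 10.2 FPKM with DMSO and 4.21 and 4.68 FPKM with gSI in sum. Their part in the results below was not tested.

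The promoters of 3 mouse members are printed first, because these genes were lower in all 6 restricted libraries than in both controls (values below) and their start regions differ in motif content. Each window runs from 250 bases before to 50 bases after the start site (base 251 counted from the 5′ end of the window), from RefSeq on GRCm38.p6, 5′ to 3′ on the gene's strand. Capitals mark the E-box CACGTG and the ETS-like motif CCGGAAG or its reverse complement CTTCCGG. Rrn3 lies at chr16:13780449-13780748 (+), Taf1a at chr1:183388735-183389034 (+, one of 2 listed starts), and Polr3f at chr2:144527495-144527794 (+).
Rrn3: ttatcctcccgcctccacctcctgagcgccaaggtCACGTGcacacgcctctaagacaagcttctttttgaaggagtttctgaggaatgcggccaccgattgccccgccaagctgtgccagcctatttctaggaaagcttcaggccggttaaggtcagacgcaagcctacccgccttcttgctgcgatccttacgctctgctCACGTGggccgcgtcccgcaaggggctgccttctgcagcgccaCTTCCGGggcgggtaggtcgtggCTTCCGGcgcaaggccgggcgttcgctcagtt
Taf1a: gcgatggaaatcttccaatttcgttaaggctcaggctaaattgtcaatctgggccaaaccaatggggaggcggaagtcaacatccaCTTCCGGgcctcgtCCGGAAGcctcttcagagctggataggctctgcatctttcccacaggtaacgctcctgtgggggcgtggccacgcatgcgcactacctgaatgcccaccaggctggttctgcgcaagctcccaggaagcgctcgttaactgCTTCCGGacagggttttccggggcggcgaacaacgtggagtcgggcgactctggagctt
Polr3f: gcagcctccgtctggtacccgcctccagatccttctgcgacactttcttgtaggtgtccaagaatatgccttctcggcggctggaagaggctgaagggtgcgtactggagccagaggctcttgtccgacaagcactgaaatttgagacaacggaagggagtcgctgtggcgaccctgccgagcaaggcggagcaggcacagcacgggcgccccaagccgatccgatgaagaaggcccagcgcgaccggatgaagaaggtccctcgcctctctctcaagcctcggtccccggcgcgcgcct
The Rrn3 window held 2 E-boxes, beginning at bases 36 and 203, and 2 ETS-like motifs, at bases 246 and 269. The Taf1a window held 3 ETS-like motifs, at bases 87, 101 and 242, and that of Polr3f held neither motif.

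Promoter windows were listed for 29 of the 33 mouse members. The ETS-like motif, searched on both strands, was in 14 of the 29 (48.3%), against 23% of 7580 tested genes and 9.93% of all 27025 genes in the promoter table. The E-box was in 5 (17.2%), namely Gtf3c6, Polr2h, Polr3c, Polr3gl and Rrn3, against 12.3% of tested and 8.09% of all genes. CCAAT was in 8 (27.6%), against 43.5% and 41.1%. The NRF1 motif and the amino acid response motif TTGCATCA, each searched as an exact string, were in 0 of 29, against 2.61% and 0.686% of tested genes. Near matches to either motif were not counted. Among the 8 of these genes that were lower in all 6 restricted libraries, 3 held the ETS-like motif, against 11 of the 21 others. These are matches of letters in a window and are given as a description.

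In KOPTK1, members of the machinery rose and fell in equal number after gSI, at shares near those over all genes. Of the 25 members with a mean of at least 1 FPKM, 6 rose, 6 fell and 13 did not pass (limma on log2(FPKM + 1), adjusted p under 0.05). Over all 6679 tested genes 22.8% rose and 30.3% fell, so 6 of 25 in each direction is near the background. The median difference of the members was -0.03 on the log2(FPKM + 1) scale, the same as over all tested genes. Human FPKM were computed over long gene lengths (a median recovered length of 29957 bp), and whether reads from introns were counted is not stated in the sources used here. On that scale 12 members lay under 1 FPKM and entered only the test on recovered reads. In that test (voom on all 11513 genes, added after seeing the data) 10 of 37 members rose, 9 fell and 18 did not pass, against 25.4% and 28.8% of all genes. The members' median voom log2 fold change was 0.08, and that of all genes was -0.01. The limma count of members was lower without gSI replicate 2, as was the count over all genes. When only the 6 members averaging 5 FPKM or more were kept, 4 passed. Of the 2051 genes kept at that filter, 415 rose and 724 fell.

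**Figure D1:**
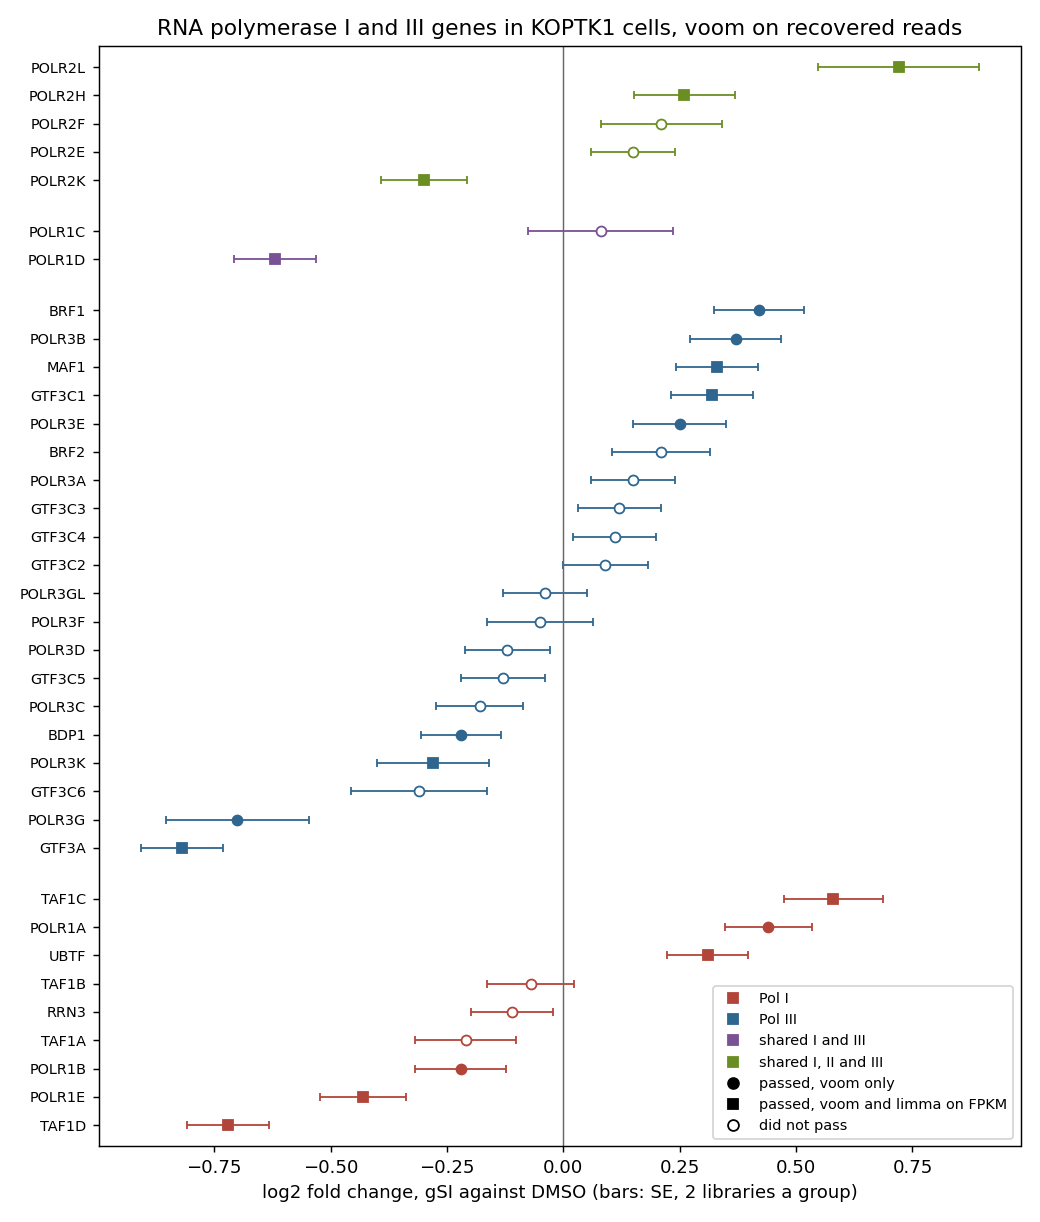
Log2 fold change of 36 human members, gSI against DMSO, from voom on recovered reads (horizontal axis; bars are the SE, 2 libraries a group), by class. Filled symbols passed an adjusted p of 0.05 (10 higher, 9 lower), squares also passed in the limma fit on FPKM, and open circles did not pass.

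Among the Pol I genes, 2 of the 5 tested rose, 2 fell and RRN3 did not pass. Of all tested genes 22.8% rose and 30.3% fell, and 5 genes are few to set beside these shares. UBTF, which bends and holds the ribosomal DNA promoter, stood at 17.3 and 15.3 FPKM with DMSO and 19.0 and 21.4 FPKM with gSI. Both gSI libraries were above both DMSO libraries, with a log2(FPKM + 1) difference of 0.29 ± 0.0857 (SE) and an adjusted p of 0.00577. Without DMSO replicate 2 the difference was 0.21 (adjusted p 0.0995) and without gSI replicate 2 also 0.21 (adjusted p 0.192), so the call was lost and the direction was kept. TAF1C, a subunit of SL1, was at 2.26 and 2.17 FPKM with DMSO and 3.14 and 3.46 FPKM with gSI, a rise of 0.42 ± 0.0727 on that scale (adjusted p 2.6e-05). Its partner TAF1D went the other way, from 4.88 and 4.42 FPKM to 2.90 and 2.74 FPKM, and fell by 0.56 (SE 0.0755, adjusted p 5.8e-07). POLR1E, a subunit found only in Pol I, was at 3.33 and 3.12 FPKM with DMSO and 2.45 and 2.34 FPKM with gSI, and fell by 0.31 (SE 0.0723, adjusted p 6.4e-04). The groups did not overlap for any of these 4 genes. Over all tested genes, 33.9% were higher and 42.4% lower in both gSI libraries than in both DMSO libraries.

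RRN3, the factor that makes Pol I competent to initiate, was at 3.37 and 2.95 FPKM with DMSO and 2.90 and 2.96 FPKM with gSI. The groups overlapped, and its log2(FPKM + 1) difference was -0.08 ± 0.0749 (adjusted p 0.377). The largest subunit POLR1A was under the FPKM filter, at 0.501 and 0.521 FPKM with DMSO and 0.684 and 0.699 FPKM with gSI. These levels rest on 926 to 2690 recovered reads per library over a recovered length of 85939 bp, and its voom log2 fold change was 0.44 ± 0.0936 (adjusted p 1.4e-05). The second largest subunit POLR1B differed in the other direction, from 1.11 and 1.01 FPKM to 0.897 and 0.919 FPKM, with a voom log2 fold change of -0.22 ± 0.0979 (adjusted p 0.0485). In the limma fit without a filter the adjusted p was 0.00535 for POLR1A and 0.116 for POLR1B. TAF1A (voom log2 fold change -0.21, adjusted p 0.0975) and TAF1B (-0.07, adjusted p 0.548) did not pass.

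Among the Pol III genes, 2 of 15 tested rose, 2 fell and 11 did not pass in the FPKM fit. The shares over all tested genes were 22.8% and 30.3%. The largest fall of any member was that of GTF3A, the zinc finger factor TFIIIA of 5S genes. It stood at 21.3 and 19.8 FPKM with DMSO and 11.7 and 11.5 FPKM with gSI, a log2(FPKM + 1) difference of -0.77 ± 0.0804 (adjusted p 8.8e-09). MAF1, the repressor of Pol III, was at 36.5 and 36.1 FPKM with DMSO and 45.4 and 45.5 FPKM with gSI, and rose by 0.32 ± 0.0821 (adjusted p 0.0019). Under quantile scaling the MAF1 difference was 0.53. GTF3C1, the largest TFIIIC subunit and the one that binds the B box of transfer RNA genes, was at 1.67 and 1.59 FPKM with DMSO and 2.0 and 2.07 FPKM with gSI. It rose by 0.21 ± 0.0651 (adjusted p 0.00889), a call lost without gSI replicate 1 (0.22, adjusted p 0.084) or gSI replicate 2 (0.19, adjusted p 0.151). POLR3K, a small subunit with a role in termination, was at 2.28 and 2.14 FPKM with DMSO and 1.71 and 1.90 FPKM with gSI. It fell by 0.20 (SE 0.0684, adjusted p 0.0173), and did not pass without DMSO replicate 1 (-0.16, adjusted p 0.0693), gSI replicate 1 (-0.15, adjusted p 0.309) or gSI replicate 2 (-0.25, adjusted p 0.0677).

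**Figure D2:**
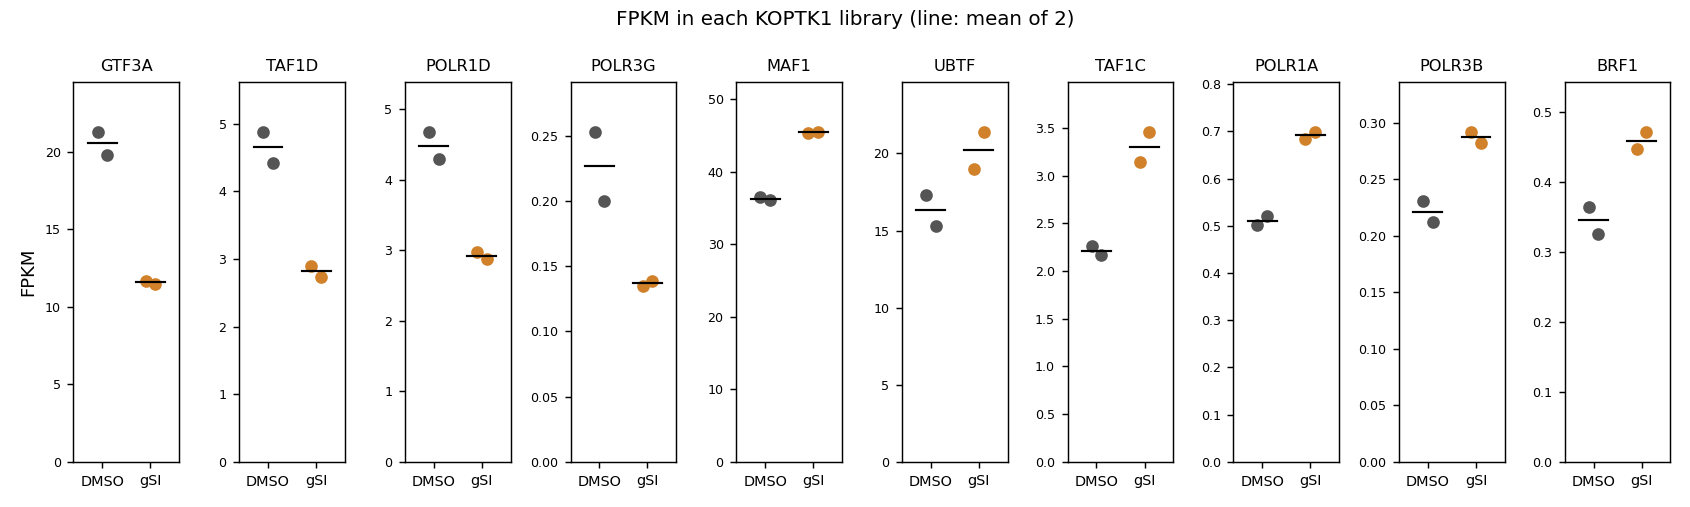
FPKM of 10 human members in each library (vertical axis, from 0, scaled per gene) with DMSO (grey) and gSI (orange); points are the 2 libraries and the line is their mean. GTF3A, TAF1D, POLR1D and POLR3G are lower in both gSI libraries than in both DMSO libraries, and the other 6 are higher in both.

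Pol III holds 1 of 2 alternative subunits at the same place, POLR3G or POLR3GL. POLR3G, the form linked to stem and tumour cells, was at 0.253 and 0.200 FPKM with DMSO and 0.135 and 0.139 FPKM with gSI, on 177 to 266 recovered reads. It fell in the test on reads (voom log2 fold change -0.70 ± 0.153, adjusted p 2.2e-05) and in the limma fit without a filter (adjusted p 0.00407). Its widely expressed counterpart POLR3GL was at 4.97 and 4.59 FPKM with DMSO and 4.50 and 4.78 FPKM with gSI, with overlapping groups and a voom log2 fold change of -0.04 ± 0.0906 (adjusted p 0.725). The difference between the paralogs was not tested.

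Of the core subunits of Pol III, POLR3B, the second largest, was at 0.231 and 0.212 FPKM with DMSO and 0.292 and 0.282 FPKM with gSI (voom log2 fold change 0.37 ± 0.0973, adjusted p 4.1e-04). The catalytic subunit POLR3A was at 1.46 and 1.29 FPKM against 1.5 and 1.55 FPKM, without overlap but short of the threshold (voom log2 fold change 0.15 ± 0.0899, adjusted p 0.139). POLR3E rose in the test on reads only (0.25 ± 0.1, adjusted p 0.0289; limma without a filter 0.0772). POLR3C, POLR3D and POLR3F did not pass in either test, with voom log2 fold changes of -0.18 to -0.05.

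BRF1, the TFIIIB subunit used at transfer RNA genes, was at 0.364 and 0.325 FPKM with DMSO and 0.446 and 0.471 FPKM with gSI. It rose in the test on reads (voom log2 fold change 0.42 ± 0.096, adjusted p 5.6e-05). BDP1, its partner, was at 3.19 and 2.66 FPKM against 2.48 and 2.51 FPKM, and passed on reads (-0.22 ± 0.0868, adjusted p 0.022) but not in the limma fit (adjusted p 0.0706). BRF2, used at U6-type promoters, did not pass (log2(FPKM + 1) difference 0.16, adjusted p 0.0704). GTF3C2 to GTF3C6 had voom log2 fold changes between -0.31 and 0.12 and did not pass on reads. GTF3C6, the lowest of them (-0.31 ± 0.146, adjusted p 0.0584), passed in the limma fit without a filter (-0.16, adjusted p 0.0414).

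The subunits shared between polymerases also went both ways. POLR1D, shared by Pol I and Pol III, stood at 4.68 and 4.29 FPKM with DMSO and 2.97 and 2.87 FPKM with gSI, and fell by 0.48 on the log2(FPKM + 1) scale (SE 0.0749, adjusted p 4.9e-06). POLR1C, which pairs with it in the assembly platform of both enzymes, was at 0.414 and 0.320 FPKM against 0.406 and 0.364 FPKM, with overlapping groups and a voom log2 fold change of 0.08 ± 0.156 (adjusted p 0.689). Of the subunits common to all 3 polymerases, POLR2L was at 0.886 and 0.948 FPKM with DMSO and 1.30 and 1.71 FPKM with gSI, and rose by 0.38 ± 0.0651 (adjusted p 1.9e-05). Its counts were small, at 99 to 398 recovered reads per library, and its voom log2 fold change was 0.72 ± 0.172 (adjusted p 1.0e-04).

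POLR2H was at 2.95 and 3.10 FPKM with DMSO and 3.42 and 3.82 FPKM with gSI, and rose by 0.20 ± 0.075 on the log2(FPKM + 1) scale (adjusted p 0.0292). POLR2K was at 17.4 and 16.6 FPKM against 14.9 and 12.9 FPKM, and fell by 0.28 (SE 0.0836, adjusted p 0.00672). Both kept their direction without any 1 library, but the calls were lost in several of these fits. POLR2H differed by 0.17 without DMSO replicate 1 (adjusted p 0.101), 0.26 without gSI replicate 1 (adjusted p 0.0726) and 0.14 without gSI replicate 2 (adjusted p 0.402). POLR2K differed by -0.25 without DMSO replicate 1 (adjusted p 0.0688), -0.18 without gSI replicate 2 (adjusted p 0.268) and -0.15 under quantile scaling (adjusted p 0.175). POLR2E, at 6.94 and 7.62 FPKM with DMSO and 7.82 and 8.38 FPKM with gSI, did not overlap but did not pass (0.14 ± 0.0791, adjusted p 0.147), and POLR2F did not pass on reads (0.21, adjusted p 0.171).

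Recovered gene length, which sets the human FPKM scale, is given beside the changes as a description. The 10 members that rose on reads had a median recovered length of 27143 bp, the 9 that fell 35143 bp and the 18 others 22401 bp. Spearman's rho between length and voom log2 fold change was -0.00498 over the 37 members, which share the same 4 libraries. The length used for a gene is the same in every library. Whether length or reads from introns had a part in the changes was not tested.

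Genes that work beside the machinery were counted in lists. Of 7 Pol I cofactors, 3 fell and 0 rose in the FPKM fit (30.3% and 22.8% over all tested genes): TTF1, the termination factor, by 0.39, NOLC1, a nucleolar assembly factor, by 0.23, and SMARCA5, a chromatin remodeller, by 0.21 on the log2(FPKM + 1) scale (adjusted p 1.4e-05, 0.0214 and 0.0311). In the test on reads 4 fell and 1 rose, against 28.8% and 25.4% of all genes, since TCOF1, a nucleolar factor of ribosomal RNA synthesis (voom log2 fold change -0.23, adjusted p 0.0191), and BAZ2A, a subunit of a remodeller that silences ribosomal DNA (0.20, adjusted p 0.0358), passed there. Of the 4 tested Pol III cofactors, SNAPC3 and SNAPC5 of the snRNA activating complex and SSB, the La protein that binds Pol III transcripts, fell by 0.30, 0.16 and 0.29 (adjusted p 4.3e-04, 0.0344 and 0.00378). SNAPC2 rose by 0.22 (adjusted p 0.025). In the test on reads, which took in all 7 Pol III cofactors, 3 fell and 1 rose. SNAPC4, the largest subunit of the snRNA activating complex, was at 0.222 and 0.229 FPKM with DMSO and 0.462 and 0.492 FPKM with gSI, on 111 to 512 recovered reads, and rose (voom log2 fold change 1.08 ± 0.162, adjusted p 2.8e-10). SSB, SNAPC3 and SNAPC1 (-0.28, adjusted p 0.0139) fell there, and SNAPC5 (adjusted p 0.0739) and SNAPC2 (adjusted p 0.0613) did not pass. Of 3 tested polymerase subunits listed under older symbols, ZNRD1 fell by 0.28 and TWISTNB, both of Pol I, by 0.21 (adjusted p 0.00264 and 0.0258), and CRCP of Pol III did not pass (adjusted p 0.626). Of 7 subunits found only in Pol II, POLR2A rose by 0.62 and POLR2B by 0.18 (adjusted p 1.7e-06 and 0.0499), POLR2D fell by 0.20 (adjusted p 0.038), and 4 did not pass.

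In the mouse leukaemias, restricted valine left no gene past the threshold, but most members had lower estimates than the control diet and the Pol I genes all did. The median estimates over all tested genes and over the 7 subunits found only in Pol II were also below 0. All 33 members were tested. For 0, 0.4 and 0.8 g/kg against 8 g/kg, for their mean against 8 g/kg (a contrast added after seeing the data) and for the slope over ranked diets, limma called 0 members and 0 of 9943 genes (0%), and voom on recovered reads also called 0. At an unadjusted p under 0.05 there were 1025, 1059, 433, 1102 and 1220 genes, and 4, 6, 3, 6 and 5 members, in that order. The comparisons share the 2 control libraries, so their likeness is no separate evidence.

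The median log2(FPKM + 1) difference of the 33 members was -0.12 at 0 g/kg, -0.13 at 0.4 g/kg and -0.12 at 0.8 g/kg, against -0.01, -0.05 and -0.04 over all tested genes. By class, the medians were -0.20, -0.19 and -0.18 for Pol I, -0.13, -0.13 and -0.12 for Pol III, 0.08, 0.16 and 0.11 for the 2 subunits shared by Pol I and Pol III, and 0.04, -0.00 and -0.08 for the 4 shared by all 3 polymerases, of which 0 had an estimate above 0 at 0.8 g/kg. Estimates were below 0 for 9 of 9 Pol I genes in each comparison and for 16, 15 and 15 of 18 Pol III genes. The same count over all tested genes was not made, and their median was also below 0 in each comparison. In single libraries the Pol I median, relative to the control mean, was 0.02 and -0.02 at 8 g/kg and between -0.13 and -0.22 in the 6 restricted libraries. That of Pol III was between -0.06 and -0.20 in those 6, and that of all tested genes between -0.00156 and -0.07.

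**Figure D3:**
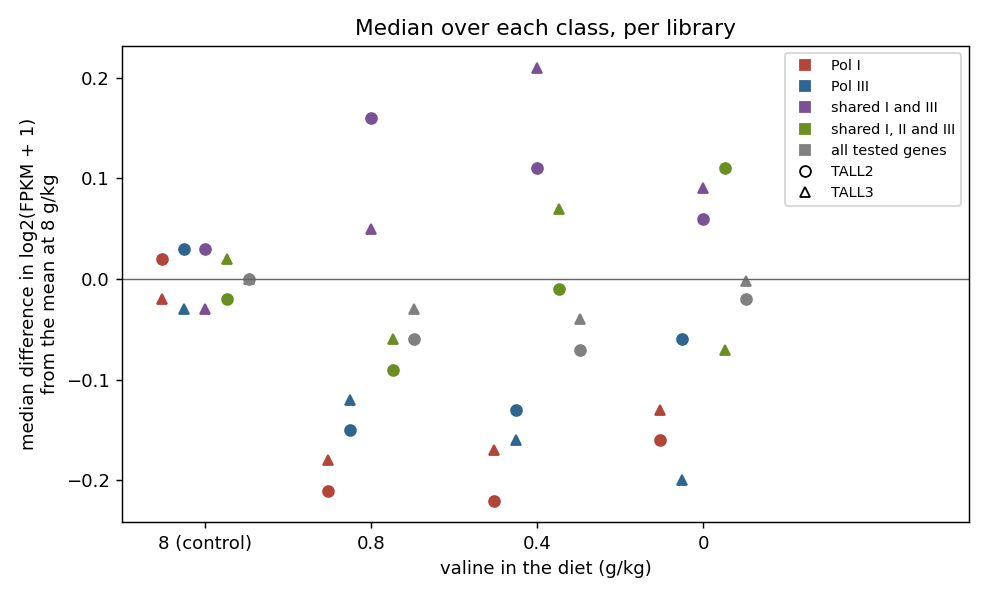
Median over each class of the difference in log2(FPKM + 1) from the mean of the 2 control libraries (vertical axis), for each mouse library (circle TALL2, triangle TALL3) by valine in the diet (horizontal axis, not to scale). The Pol I medians of the 6 restricted libraries lie between -0.13 and -0.22, below the medians of all tested genes in grey.

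Libraries were also compared by count, without a test. At 0 g/kg, 17 members were lower in both libraries than in both controls and 2 were higher, against 22.9% and 19.1% of tested genes (51.5% and 6.06% of members). At 0.4 g/kg the counts were 18 lower and 4 higher, against 31.8% and 16.9%, and at 0.8 g/kg 19 lower and 2 higher, against 22.5% and 10.6%. In all 6 restricted libraries together, a count added after seeing the data, 12 members (36.4%) were below both controls and 0 were above, against 11.4% and 4.73% of tested genes. They included Polr1a, Polr1b, Rrn3, Ubtf and Taf1a of Pol I, and Polr3a, Polr3d, Polr3f, Gtf3c2, Gtf3c3 and Maf1 of Pol III, with none of the shared subunits. In KOPTK1, 9 of 25 members were higher and 9 lower in both gSI libraries than in both DMSO libraries, against 33.9% and 42.4% of tested genes.

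The 6-library count was 10 under median-of-ratios and quantile scaling, where 8.54% and 9.13% of tested genes were lower. Without TALL3 at 8 g/kg it was 20 lower and 2 higher, against 23.1% and 14.5%. Without both 0 g/kg libraries 16 members were lower and 2 higher, against 18.2% and 7.47%. Leaving libraries out can only keep or raise these counts of members, so they are no check of the 6-library count. The part of the neutrophil markers, which were highest at 0 g/kg, was not tested.

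**Figure D4:**
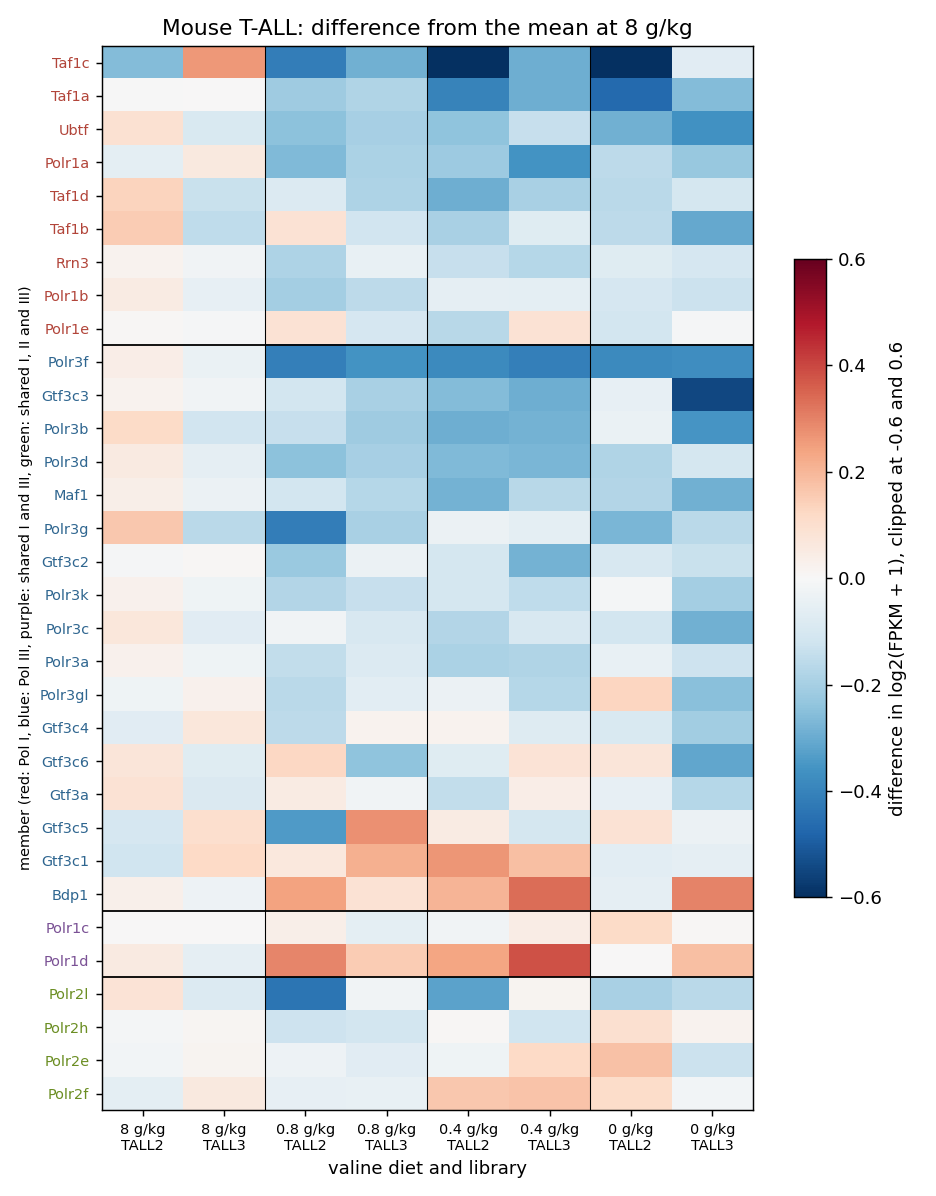
Difference in log2(FPKM + 1) from the mean of the 2 control libraries for 32 mouse members (vertical axis, by class) in each of the 8 libraries (horizontal axis); blue is lower, red higher, and values beyond 0.6 are clipped. Polr3f and Taf1a are blue in all 6 restricted libraries, and Polr1d and Bdp1 are red in most.

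Of the Pol I genes, Taf1a, a subunit of SL1, was at 19.8 (TALL2) and 19.9 FPKM (TALL3) on the control diet. It was at 17.0 and 17.4 FPKM at 0.8 g/kg, 14.8 and 16.0 FPKM at 0.4 g/kg, and 14.1 and 16.4 FPKM at 0 g/kg, all below both controls. Its slope per diet step was -0.12 ± 0.0317 (adjusted p 0.243), and the mean of the restricted diets differed by -0.30 ± 0.0824 (adjusted p 0.348). Ubtf was at 92.6 and 81.6 FPKM on the control diet, 73.2 and 75.5 FPKM at 0.8 g/kg, 73.5 and 78.8 FPKM at 0.4 g/kg and 71.1 and 67.4 FPKM at 0 g/kg. All 6 restricted libraries were below the controls, with a mean difference of -0.25 ± 0.0749 (adjusted p 0.375).

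Polr1a, the catalytic subunit, was at 27.9 and 30.4 FPKM on the control diet and between 22.5 and 26.0 FPKM in the restricted libraries (mean difference -0.24 ± 0.0757, adjusted p 0.39). Polr1b was at 33.1 and 30.8 FPKM against 27.6 to 30.7 FPKM (-0.12 ± 0.0628, adjusted p 0.533), and Rrn3 at 40.3 and 39.0 FPKM against 34.8 to 38.4 FPKM (-0.12 ± 0.0659, adjusted p 0.554). In both genes the gap between the groups was smaller than the range within the restricted libraries. Taf1c had the lowest estimate of the class, -0.38 ± 0.204, but its controls were far apart at 9.95 and 14.7 FPKM and overlapped with 7.43 to 11.5 FPKM. Polr1e, Taf1b and Taf1d overlapped as well, with mean differences of -0.04, -0.13 and -0.17.

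Of the Pol III genes, Polr3f, a subunit of the peripheral subcomplex that takes part in initiation, had the smallest p of the class. It was at 14.4 (TALL2) and 13.6 FPKM (TALL3) on the control diet, 10.3 and 10.7 FPKM at 0.8 g/kg, 10.5 and 10.3 FPKM at 0.4 g/kg, and 10.5 and 10.6 FPKM at 0 g/kg. The 6 restricted libraries lay within 10.3 to 10.7 FPKM whatever the dose, and the differences were -0.38, -0.39 and -0.38 for 0, 0.4 and 0.8 g/kg. The mean difference was -0.38 ± 0.0704, with an unadjusted p of 0.00144 and an adjusted p of 0.32. In KOPTK1, POLR3F did not pass, at 1.11 and 1.04 FPKM with DMSO and 1.07 and 1.01 FPKM with gSI (adjusted p 0.718).

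Maf1 was at 70.4 and 67.1 FPKM on the control diet and between 56.1 and 63.5 FPKM in the restricted libraries (mean difference -0.20 ± 0.0695, adjusted p 0.417). All 6 restricted libraries were below both controls, whereas MAF1 was higher with gSI in KOPTK1. Polr3d was at 17.1 and 15.8 FPKM against 13.4 to 15.2 FPKM (-0.21 ± 0.071, adjusted p 0.403). Polr3a was at 14.2 and 13.7 FPKM against 12.1 to 13.5 FPKM (-0.13 ± 0.0696, adjusted p 0.547).

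Polr3b overlapped in 1 library: its controls were 32.2 and 27.4 FPKM, and the restricted libraries ran from 23.0 to 28.9 FPKM (-0.22 ± 0.109, adjusted p 0.515). Polr3g was at 4.39 and 3.30 FPKM against 2.61 to 3.70 FPKM (-0.19 ± 0.14, adjusted p 0.652), and Polr3gl at 13.4 and 13.9 FPKM against 11.3 to 15.0 FPKM (-0.09 ± 0.116, adjusted p 0.803). Gtf3a was at 57.1 and 50.4 FPKM against 47.6 to 55.5 FPKM (-0.05 ± 0.0875, adjusted p 0.872), so its groups overlapped, unlike those of GTF3A in KOPTK1. The remaining TFIIIC subunits had mean differences from -0.25 (Gtf3c3) to -0.01 (Gtf3c5) except Gtf3c1.

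Few members had estimates above 0. Among the Pol III genes these were Gtf3c1, at 32.4 and 38.3 FPKM against 33.7 to 42.6 FPKM (0.10 ± 0.0877, adjusted p 0.707), and Bdp1, at 21.7 and 20.7 FPKM against 20.4 to 27.0 FPKM (0.19 ± 0.111, adjusted p 0.577). Polr1d was at 41.9 and 38.7 FPKM on the control diet, 49.6 and 44.9 FPKM at 0.8 g/kg, 47.6 and 52.7 FPKM at 0.4 g/kg, and 40.3 and 45.7 FPKM at 0 g/kg. Both libraries at 0.8 and at 0.4 g/kg were above both controls, and at 0 g/kg 1 of 2 was, with a mean difference of 0.21 ± 0.0876 (adjusted p 0.455). Polr1c was at 44.5 FPKM in both controls and 42.7 to 48.2 FPKM in the restricted libraries (0.02 ± 0.0657, adjusted p 0.938). Of the subunits common to all 3 polymerases, Polr2e, Polr2f and Polr2h had mean differences of 0.00825, 0.05 and -0.04 (adjusted p 0.985, 0.803 and 0.885). Polr2l, on 50 to 135 recovered reads, was at 3.06 and 2.63 FPKM against 1.83 to 2.88 FPKM (-0.19 ± 0.174, adjusted p 0.726).

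The mouse table also held 3 genes without a symbol that the reference names as Brf1, Brf2 and Polr3e, and which are not counted above. Their mean differences were -0.09 ± 0.0613, -0.21 ± 0.0772 and -0.21 ± 0.0851 (adjusted p 0.63, 0.429 and 0.45). Brf2 was at 9.91 and 10.6 FPKM on the control diet and between 7.94 and 9.56 FPKM in the restricted libraries, without overlap.

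The neighbouring lists showed no calls in mouse. For the mean of the restricted diets the median difference was 0.01 over 6 Pol I cofactors and 0.02 over 6 Pol III cofactors. It was -0.10 over the 4 subunits under older symbols and -0.16 over the 7 Pol II subunits, of which 5 were below 0. Beside these, it was -0.17 over the Pol I genes, -0.13 over the Pol III genes and -0.03 over all tested genes. The smallest p-values were those of Nolc1 (-0.23, adjusted p 0.431) and Tcof1 (0.09, adjusted p 0.73) among the Pol I cofactors, of Snapc4 (-0.10, adjusted p 0.725) and Snapc1 (0.10, adjusted p 0.847) among the Pol III cofactors, of Twistnb (-0.20, adjusted p 0.47) and Crcp (-0.14, adjusted p 0.585) under older symbols, and of Polr2b (-0.18, adjusted p 0.431) and Polr2i (-0.17, adjusted p 0.453) among the Pol II subunits.

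In the mouse table (a median recovered length of 3180 bp) the members spanned 2.85 to 87.1 FPKM on the control diet. The gene model behind these lengths is not given, and whether levels can be compared between genes was not tested. Ubtf was highest and Polr2l lowest, with medians of 25.3 FPKM over Pol I genes, 16.1 FPKM over Pol III genes and 15 FPKM over all tested genes. Polr3gl (13.6 FPKM) was above Polr3g (3.85 FPKM) in every library. On the mouse genome (GRCm38) Polr3gl and Polr3c lie 117309 bp apart on chromosome 3, Gtf3a and Polr1d 121436 bp apart on chromosome 5, and Gtf3c5 and Gtf3c4 238548 bp apart on chromosome 2. GTF3A and POLR1D were 2 of the 3 members with the largest falls in the FPKM fit of KOPTK1, and in mouse their mean differences had opposite signs.

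The 33 members listed in both tables had the following signs of estimate, from voom in KOPTK1 and from the mean of the restricted diets in mouse. They were below 0 in both for 15 members, above 0 in both for 4, lower with gSI and higher on restricted valine for 2, and higher with gSI and lower on restricted valine for 12. The 12 include POLR1A, UBTF, MAF1, POLR3B and TAF1C. Of the mouse estimates 27 were below 0 and 0 passed the threshold, and many of those in KOPTK1 did not pass. The split to be expected from the signs in each table alone was not computed, and the tables were normalised separately.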

How the data were processed

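RNA was measured in 4 KOPTK1 libraries and 8 libraries of sorted mouse leukaemia cells, 2 per group. The authors deposited FPKM per gene, 1 table per species. The submitters' processing notes name STAR, edgeR, hg19 and mm10 without roles or versions, and the gene model behind the lengths is not given in the sources read. The kit was directional, per the labels' protocols, and whether counting used strand is not stated.

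Genes averaging 1 FPKM or more (6679 human, 9943 mouse) entered limma (version 3.58.1, R version 4.3.3), which was run on log2(FPKM + 1) and used a variance trend. Tests were two-sided with Benjamini-Hochberg adjustment over all tested genes and a threshold of 0.05. The pseudocount shrinks changes of low genes. The mouse diets were fitted together, and the slope used diets ranked 0 to 3 by falling valine. FPKM steps gave whole reads per gene (95.8% of human lengths and 99.9% of mouse lengths came out whole to 0.01 bp before correction), and voom tested these with the authors' divisors. The steps were tested on simulated data. A change is printed as the estimate ± its SE.

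The members and lists were chosen with earlier results of these data known. The text names 16 fixed members, up to 4 members per class and direction past the threshold in a comparison, and otherwise the 2 with the smallest p, and other members are summarised or were named after their values were seen. Alternatives were pseudocounts of 0.1 and 5, no filter or one at 5 FPKM, quantile or median-of-ratios scaling, no trend, a replicate block, voom, only the diets compared, and leaving out libraries. Correlations between libraries with the same number were 0.743, 0.566, 0.425, 0.363, 0.0588 and -0.174 over the pairs of mouse diets, and 0.258 in KOPTK1. The numbers were not used as pairs in the main fit, and the replicate block was the alternative that used them. For the mean of the restricted diets, the block moved the genes at an unadjusted p under 0.05 from 1102 to 1323, with 0 past the threshold. Human coordinates and sequences were not analysed here. The values of 1 member are not reported here, though it is included in the counts and medians.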

Additional observations from a re-analysis of the deposited data

How the results depend on the processing

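The count of 12 KOPTK1 members past the threshold was 4 under the 5 FPKM filter, which left 6 members, 17 with no filter and 19 with voom on recovered reads and no filter. It ranged from 7 (without gSI replicate 2) to 13 (without DMSO replicate 2) when single libraries were left out; where an arm had 1 library, that library was assumed to vary like the others. With a replicate block it was 13, and the block gave 0 members in every mouse comparison, as did each of the other mouse alternatives. Over all KOPTK1 genes, 1524 rose and 2023 fell of 6679 in the main fit, and 415 and 724 of 2051 under the 5 FPKM filter. With no filter 2518 rose and 2856 fell of 11513, and with voom 2921 and 3313. The replicate block gave 1591 and 2114 of 6679. Without single libraries, the count over all genes was also lowest without gSI replicate 2 and highest without DMSO replicate 2. The 18 of 25 KOPTK1 members without overlap were 6 of 6 with the 5 FPKM filter, where 30.5% of all genes were higher and 47.9% lower. The 12 mouse members lower in all 6 restricted libraries were 12 to 22 members of either direction without single libraries, with the highest count without TALL3 at 8 g/kg. In those settings 11.7% to 23.1% of tested genes were lower and 5.06% to 14.5% higher. Leaving out a library can only keep or raise this count of members, so a value of at least 12 was fixed in advance. No member past the threshold changed sign. The calls of GTF3C1, UBTF, POLR3K, POLR2H and POLR2K were lost in 13 fits in all, 12 of them without 1 library and 1 (POLR2K) under quantile scaling, and the cause was not tested. Of the medians over classes, 55 of 544 moved by more than the spread between libraries. With 2 libraries a group, and 50 to 135 reads for Polr2l, small differences were not detectable.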
